A study of Mus musculus with 22 samples.

Results

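The integrated stress response and amino acid genes described here are a list of 43 mouse genes: transcription factors of the response, stress effectors, enzymes of amino acid and one-carbon synthesis, amino acid transporters and cytosolic tRNA synthetases. Members were taken by exact symbol from the expression table of the series, which held 42 of the 43 among its 18487 genes. Fgf21 was not analysed here. All 42 members passed the filter on low values (at least 10 in at least 2 libraries), as did 17275 genes in all.

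RNA was measured in 22 libraries of E14 cells, a line of mouse embryonic stem (ES) cells, with 2 libraries for each of 10 compounds and for a group labelled NC that carried no compound name and served as the reference. All groups were the same line with no genotype difference in the labels, and the study's methods place its ES cells in serum medium with LIF, the cytokine that keeps them undifferentiated. The labels gave neither a dose nor a duration of treatment for any group, and the study's text does not discuss the compounds. Nothing stated that the 2 libraries of a group came from separate cultures, so the p-values below measure the spread between these libraries, which may be technical.

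The groups were as follows. DZNep blocks S-adenosylhomocysteine hydrolase and thereby restrains methyl transfer from S-adenosylmethionine. Valproate is an inhibitor of histone deacetylases. MS023 acts on type I protein arginine methyltransferases, UNC0379 on the lysine methyltransferase SETD8 and Chaetocin on several lysine methyltransferases. CPTH2 and Garcinol act on histone acetyltransferases, Bromosporine on bromodomains, and IOX1 on 2-oxoglutarate-dependent oxygenases such as histone demethylases. OICR is given as in the label, with no full compound name.

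Cells meet amino acid shortage, unfolded protein in the endoplasmic reticulum, haem deficiency or double-stranded RNA with a set of kinases that phosphorylate the initiation factor eIF2. Phosphorylated eIF2 lowers protein synthesis in general but lets the mRNA of the transcription factor ATF4 be translated more. ATF4, usually paired with a C/EBP protein, then switches on genes for amino acid synthesis, uptake and tRNA charging, and in longer stress genes such as Ddit3, Trib3 and Chac1. The libraries report RNA only, so neither eIF2 phosphorylation nor ATF4 protein was measured.

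Dimers of ATF4 and C/EBP proteins are known to bind a composite element, written TGATGNAA and searched here on both strands. The promoters were those of RefSeq (GRCm38.p6), from 250 bases before to 50 after each gene's start. Of the 42 members, 34 had a promoter in that table, and the 8 without one were Cth, Slc7a5, Slc7a3, Slc1a5, Cars, Nars, Wars and Lars. The element was found for 12 of the 34 (35.3%) and for 391 of the 12329 genes of the expression table with a promoter (3.17%). Members were looked up by symbol or synonym and the other genes by symbol alone. The list gathers genes of the ATF4 response, so a higher share could follow from the choice of genes and is not a test. Matches are descriptions of the letters in these windows and say nothing on whether a factor bound there. The stretches below show the element as it stood in member promoters, 5′ to 3′ on the gene's own strand, with the element in capitals. Each printed window lay wholly before the gene's start.
Atf3, chr1:191183426-191183453, minus strand: cttctcgcacTTGCATCAccaagtccgc
Nupr1, chr7:126625563-126625590, minus strand: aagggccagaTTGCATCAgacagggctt
Chac1, chr2:119351039-119351066, plus strand: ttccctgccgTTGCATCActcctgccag
Vldlr, chr19:27216810-27216837, plus strand: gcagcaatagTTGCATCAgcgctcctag
Asns, chr6:7693215-7693242, minus strand: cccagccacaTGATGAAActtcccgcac
Pycr1, chr11:120643834-120643861, minus strand: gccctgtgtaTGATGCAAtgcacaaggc
Slc7a11, chr3:50443662-50443689, minus strand: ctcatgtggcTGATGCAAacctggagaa
Slc7a11, chr3:50443643-50443670, minus strand: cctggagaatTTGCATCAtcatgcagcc
Gars, chr6:55037961-55037988, plus strand: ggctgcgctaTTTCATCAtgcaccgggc
In Slc7a11 the windows of both matches overlapped. Not every match is printed: those in Trib3, Slc1a4 and Iars had windows that reached past the start. The printed matches read TGATGCAA on either strand, except those of Asns and Gars, which read TGATGAAA. Starts are those of RefSeq, and the GENCODE M21 models of Atf3, Nupr1, Vldlr and Asns begin farther upstream, so that their printed windows lie within these gene models. The reference genome is of another mouse strain than the one E14 cells came from.

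Expression is given as the deposited normalized read count, and changes are log2 differences of value + 1 between a compound and NC, from 1 limma fit of all 22 libraries. A gene was called when its Benjamini-Hochberg adjusted p was under 0.05 and its change was over 2-fold, and "adjusted p" below means this limma value. Gene positions are those of GENCODE M21 on mm10. All 10 comparisons used the same 2 NC libraries, so a deviation in NC enters each of them. The normalization had given every library the same distribution of values, with a median of 409 and a maximum of 221616, so levels are relative to the other genes of a library and the sequencing depth behind each value is unknown. Of the 10 ES cell markers checked, including Pou5f1 (25663 to 39262) and Nanog (31970 to 123367), each was above 0 in every library. The fibroblast feeder marker Dcn was at 0 in all 22 libraries, Lum in 19 of 22 and Col1a2 in 4. The other feeder markers were above 0 in every library: Col1a1 (6 to 327), Col3a1 (2 to 851), Thy1 (6 to 358) and Pdgfrb (43 to 292).

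Across the 11 groups, 32 of the 42 members differed by the moderated F test at an adjusted p under 0.05, compared with 29.7% of all tested genes. The passing members were 9 of 9 synthesis enzymes, 6 of 7 stress effectors, 7 of 10 tRNA synthetases, 6 of 9 transporters and 4 of 7 transcription factors. DZNep had the lowest group mean for 30 of the 42 members, Valproate for 8, Bromosporine for 3 and OICR for 1. MS023 had the highest group mean for 30. These extremes were not counted over all genes, so how far they are particular to the members is not known. DZNep also had 1970 of all 17275 tested genes called.

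With DZNep, 19 of the 42 members (45.2%) were called lower and 0 higher, where 6.14% of all tested genes were called lower and 5.27% higher. With Valproate, 12 members (28.6%) were called lower and 0 higher, against a background of 2.55% lower and 2.73% higher. MS023 gave 1 call upward, Cebpb (background 0.388%), and 1 downward, Slc1a4 (background 0.585%). OICR gave 1 call, a lower Phgdh (background 0.26% lower and 0.127% higher). No member was called with the other 6 compounds, where the share of all genes called in either direction was 3.34% with Bromosporine, 0.116% with IOX1, 0.0174% with Chaetocin, 0.00579% each with CPTH2 and Garcinol and 0 with UNC0379. At an unadjusted limma p under 0.05, 13 members passed with Bromosporine (19% of all genes), 11 with IOX1 (12.4%), 7 with Chaetocin (4.72%), 0 with CPTH2 (0.944%), 3 with Garcinol (3.62%) and 2 with UNC0379 (6.08%). In all, 23 members were called with at least 1 compound, 19 with none, and 9 with both DZNep and Valproate. When the fit held only the 4 libraries of a compound and NC, 2 of the 19 DZNep calls remained, Phgdh and Psat1, and 0 of the 12 Valproate calls. The Valproate count was lower without Valproate replicate 2 and higher without Valproate replicate 1. The share of all genes called in these fits was not compared, so how far their counts are particular to the members is not known.

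The median change over the 42 members was -0.99 on the log2 scale with DZNep, where the median of all genes was -0.04. With Valproate it was -0.78 against -0.02 for all genes, with OICR -0.58 and with Bromosporine -0.39, where all genes lay at 0.01 both times. With MS023 the median was 0.46 and with Garcinol 0.25. The fitted change was negative for 40 members with DZNep, 40 with Valproate and 39 each with OICR and Chaetocin. It was also negative for 38 with Bromosporine, 35 with IOX1, 31 with UNC0379 and 21 with CPTH2. Positive changes numbered 35 with MS023 and 32 with Garcinol. Of all 17275 tested genes, 9044 were negative with DZNep, 8989 with Valproate, 8256 with OICR and 9327 with Chaetocin. The count was 8179 with Bromosporine, 8929 with IOX1, 8756 with UNC0379 and 8943 with CPTH2. Positive were 8162 with MS023 and 8323 with Garcinol. With OICR, 32 members had both libraries below both NC libraries, against 18.7% of all genes. The same held for 27 members with Bromosporine (background 23%), 35 with DZNep (32.4%) and 25 with Valproate (27.6%). Above both NC libraries lay 2 members with OICR (21.4%), 2 with DZNep (26.5%) and 0 with Valproate (23%). With MS023 23 members lay above (background 21.8%) and 2 below (23.6%), and with Garcinol 12 above (16.2%). Below both NC libraries lay 17 members with IOX1 (24.2%), 15 with Chaetocin (20%), 9 with UNC0379 (17.6%) and 4 with CPTH2 (7.96%).

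**Figure D1:**
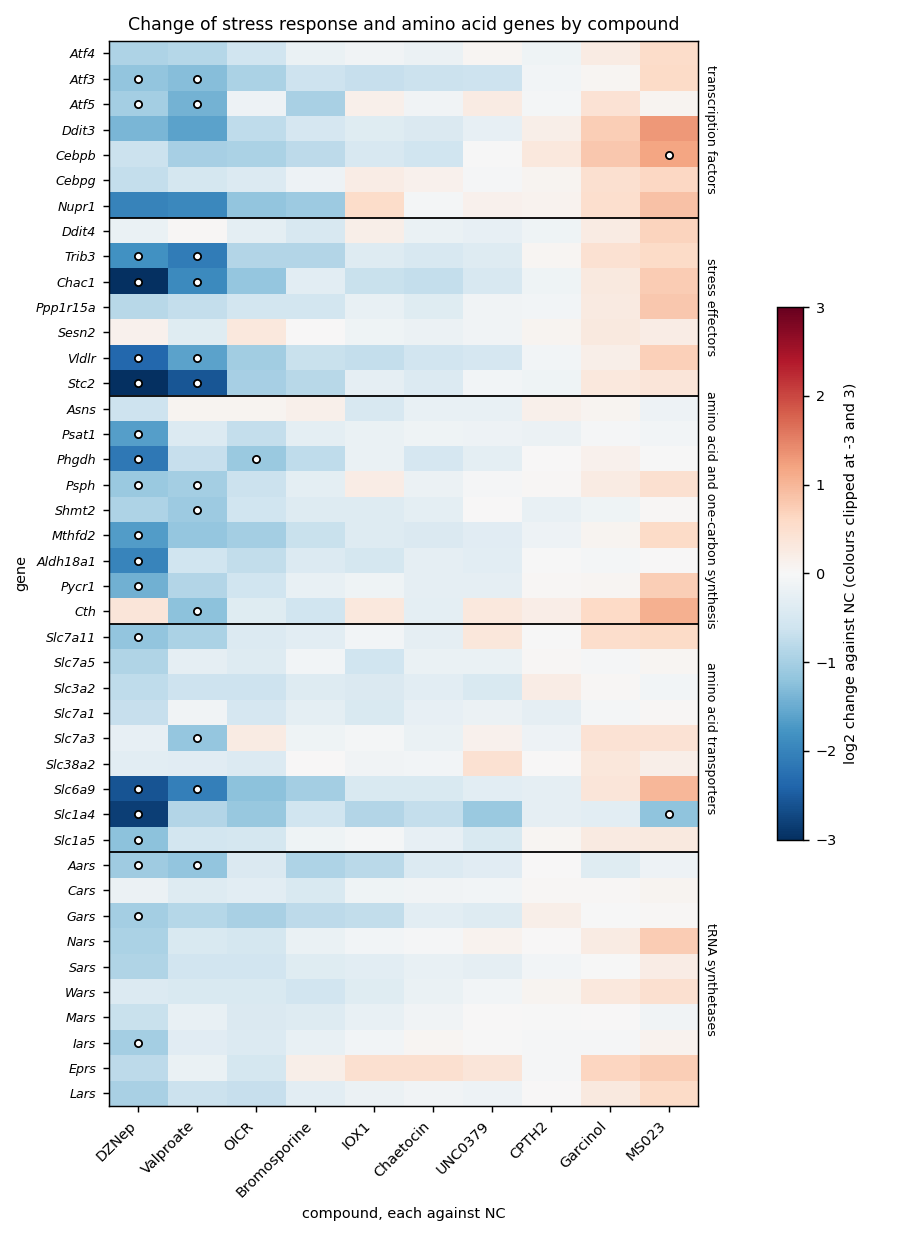
Fitted log2 change of each of the 42 members (rows, grouped by role) with each compound against NC (columns, ordered by the median over members), on a colour scale clipped at -3 and 3, with circles on the calls. Blue fills most of the DZNep and Valproate columns, with 19 and 12 circles, and red prevails in the MS023 column, where 35 of 42 changes were positive.

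Among the transcription factors, Atf3, Atf5 and Cebpb were called and Atf4, Ddit3, Cebpg and Nupr1 were not. Atf4 (chromosome 15, 80255184 to 80257541, plus strand), which encodes the central activator of the response, stood at 13581 and 10004 in NC, 8370 and 4496 with DZNep, 9086 and 4517 with Valproate, 8693 and 6837 with OICR, 10004 and 10157 with Bromosporine, 11808 and 9784 with IOX1, 12341 and 8602 with Chaetocin, 12851 and 11490 with UNC0379, 11338 and 10004 with CPTH2, 15340 and 12652 with Garcinol and 17952 and 16371 with MS023. Its lowest libraries were the second of DZNep and the second of Valproate, and both MS023 libraries lay above all others. The change was -0.93 ± 0.32 (SE) with DZNep (adjusted p = 0.0512), -0.86 with Valproate (adjusted p = 0.111) and 0.56 with MS023 (adjusted p = 0.462), none of them a call. The moderated F test over the 11 groups gave an adjusted p of 0.0396. With the replicate number as a block in the limma fit, the adjusted p for Atf4 was 0.00325 with DZNep, 0.104 with MS023 and 0.00106 in the F test. Its changes stayed under 2-fold there.

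Atf3 (chromosome 1, 191170296 to 191218039, minus strand), a stress-induced factor that is itself an ATF4 target, measured 581 and 516 in NC, 253 and 225 with DZNep, 328 and 157 with Valproate, 250 and 319 with OICR, 364 and 344 with Bromosporine, 371 and 313 with IOX1, 337 and 367 with Chaetocin, 362 and 355 with UNC0379, 496 and 546 with CPTH2, 538 and 612 with Garcinol and 727 and 917 with MS023. All 4 libraries of DZNep and Valproate lay below both NC libraries, and OICR overlapped with them. Atf3 changed by -1.20 ± 0.26 with DZNep (adjusted p = 0.00439) and by -1.27 ± 0.26 with Valproate (adjusted p = 0.00696). The Valproate call did not hold without NC replicate 1 (-1.18, adjusted p = 0.0616) or without Valproate replicate 2 (-0.74, adjusted p = 0.0388). Atf5 (chromosome 7, 44812256 to 44816658, minus strand), a factor whose mRNA is also under upstream open reading frame control, measured 3704 and 3175 in NC, 1927 and 1489 with DZNep, 1568 and 1065 with Valproate, 2784 and 3402 with OICR, 1321 and 2293 with Bromosporine, 3361 and 4339 with IOX1, 3056 and 3319 with Chaetocin, 3966 and 4131 with UNC0379, 3309 and 3261 with CPTH2, 4984 and 4291 with Garcinol and 3641 and 3585 with MS023. The 6 libraries of Valproate, DZNep and Bromosporine were the lowest of the 22. The change of Atf5 was -1.41 ± 0.24 with Valproate (adjusted p = 0.00245) and -1.02 ± 0.24 with DZNep (adjusted p = 0.00734), and the DZNep call did not hold without DZNep replicate 2 (-0.83, adjusted p = 0.0561) or NC replicate 1 (-0.91, adjusted p = 0.0716). Exons of Atf5 overlap those of Il4i1 and Nup62 on the opposite strand, and whether the counting used strand was not stated.

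Cebpb (chromosome 2, 167688915 to 167690418, plus strand), a C/EBP partner of ATF4, measured 529 and 582 in NC, 395 and 319 with DZNep, 311 and 250 with Valproate, 242 and 340 with OICR, 313 and 332 with Bromosporine, 399 and 390 with IOX1, 345 and 384 with Chaetocin, 589 and 506 with UNC0379, 736 and 652 with CPTH2, 987 and 952 with Garcinol and 1084 and 1448 with MS023. Both MS023 libraries were above all 20 others, and both Garcinol libraries were above NC. Cebpb rose by 1.17 ± 0.19 with MS023 (adjusted p = 0.00732), the only upward call among the 34 pairs of member and compound called. That call was lost without NC replicate 1 (adjusted p = 0.0806) and without MS023 replicate 2 (0.96, adjusted p = 0.07). Of the 31-base stretches in its longest transcript, 19.6% occur in transcripts of other genes.

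Ddit3 (chromosome 10, 127290774 to 127296288, plus strand), which encodes the stress factor CHOP, measured 1761 and 846 in NC, 770 and 285 with DZNep, 1100 and 143 with Valproate, 878 and 581 with OICR, 1221 and 602 with Bromosporine, 1630 and 557 with IOX1, 1531 and 541 with Chaetocin, 1409 and 761 with UNC0379, 1785 and 1082 with CPTH2, 2459 and 1665 with Garcinol and 3067 and 2930 with MS023. The second library was below the first in 11 of 11 groups. Its change with DZNep was -1.38 ± 0.85 (adjusted p = 0.263), with Valproate -1.62 (adjusted p = 0.267) and with MS023 1.30 (adjusted p = 0.535). Ddit3 and the member Mars overlap on opposite strands. Nupr1, a small chromatin-associated stress protein, had a change of -2.00 with DZNep (adjusted p = 0.071) and -1.93 with Valproate (adjusted p = 0.128). Its second library was also below the first in 11 of 11 groups, and within replicate numbers 1 and 2 the change of Nupr1 was -1.83 and -2.17 with DZNep and -1.21 and -2.65 with Valproate. With the replicate number as a block in the limma fit, Ddit3 and Nupr1 were called lower with DZNep (adjusted p = 0.0318 and 0.00123) and with Valproate. Cebpg, another C/EBP partner, ranged from 501 to 1891 over the libraries. Its change was -0.73 with DZNep (adjusted p = 0.243) and 0.63 with MS023 (adjusted p = 0.558), both under 2-fold. With the block in the limma fit these adjusted p were 0.00249 and 0.0236.

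Of the stress effectors, Trib3, Chac1, Vldlr and Stc2 were called lower with both DZNep and Valproate, and Ddit4, Ppp1r15a and Sesn2 with no compound. Trib3 (chromosome 2, 152337422 to 152344032, minus strand), a pseudokinase that binds AKT and ATF4, measured 3919 and 2805 in NC, 1156 and 771 with DZNep, 1132 and 526 with Valproate, 1817 and 1810 with OICR, 1785 and 1798 with Bromosporine, 2933 and 2165 with IOX1, 2522 and 2233 with Chaetocin, 2867 and 2224 with UNC0379, 3562 and 3312 with CPTH2, 4930 and 4135 with Garcinol and 4876 and 5048 with MS023. The 4 libraries of DZNep and Valproate were the lowest of all 22, and both MS023 libraries and both Garcinol libraries lay above both of NC. Trib3 was 3.51-fold lower with DZNep (log2 -1.81 ± 0.30, adjusted p = 0.000733) and 4.29-fold lower with Valproate (log2 -2.10 ± 0.30, adjusted p = 0.000782).

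Chac1 (chromosome 2, 119351229 to 119354381, plus strand), a glutathione-degrading enzyme and a well-known late target of the response, measured 1526 and 1195 in NC, 205 and 129 with DZNep, 803 and 158 with Valproate, 612 and 603 with OICR, 1135 and 1038 with Bromosporine, 872 and 817 with IOX1, 789 and 847 with Chaetocin, 994 and 946 with UNC0379, 1018 and 1511 with CPTH2, 1428 and 1944 with Garcinol and 2006 and 2585 with MS023. Both DZNep libraries fell below all libraries of the other groups except the second of Valproate. The first Valproate library, at 803, was close to those of IOX1 and Chaetocin. The change was -3.05 ± 0.51 with DZNep (8.26-fold lower, adjusted p = 0.000841) and -1.92 ± 0.51 with Valproate (adjusted p = 0.0279). The Valproate call rested on its second library: without it the change was -0.75 (adjusted p = 0.14), and it was also lost without NC replicate 1 (-1.74, adjusted p = 0.156) or NC replicate 2 (adjusted p = 0.0826).

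Vldlr (chromosome 19, 27216484 to 27254231, plus strand), a lipoprotein receptor whose gene ATF4 induces, measured 625 and 463 in NC, 109 and 99 with DZNep, 245 and 127 with Valproate, 245 and 273 with OICR, 352 and 324 with Bromosporine, 347 and 309 with IOX1, 383 and 340 with Chaetocin, 397 and 367 with UNC0379, 453 and 577 with CPTH2, 588 and 635 with Garcinol and 795 and 981 with MS023. The DZNep pair was the lowest and the MS023 pair the highest, and the first Valproate library equalled the first of OICR. Its change was -2.36 ± 0.25 with DZNep (adjusted p = 3.25e-05) and -1.60 ± 0.25 with Valproate (adjusted p = 0.00143). Stc2 (chromosome 11, 31357307 to 31370074, minus strand), a secreted glycoprotein induced by endoplasmic reticulum stress, measured 1590 and 909 in NC, 193 and 88 with DZNep, 329 and 123 with Valproate, 717 and 513 with OICR, 670 and 681 with Bromosporine, 1317 and 751 with IOX1, 1181 and 695 with Chaetocin, 1310 and 987 with UNC0379, 1396 and 858 with CPTH2, 1825 and 1237 with Garcinol and 1610 and 1465 with MS023. The 4 libraries of DZNep and Valproate were again the lowest of the 22. The change of Stc2 was -3.19 ± 0.49 with DZNep, or 9.16-fold lower (adjusted p = 0.000504), and -2.57 ± 0.49 with Valproate (adjusted p = 0.0052), the latter call lost without NC replicate 1 (-2.17, adjusted p = 0.0617). Ddit4, an mTORC1 inhibitor, and Sesn2, a leucine sensor that also answers to p53, stood at changes of -0.20 (adjusted p = 0.812) and 0.12 (adjusted p = 0.578) with DZNep. Ppp1r15a, which encodes the phosphatase subunit GADD34 that reverses eIF2 phosphorylation, gave -0.82 with DZNep (adjusted p = 0.000456) and 0.81 with MS023 (adjusted p = 0.00675).

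**Figure D2:**
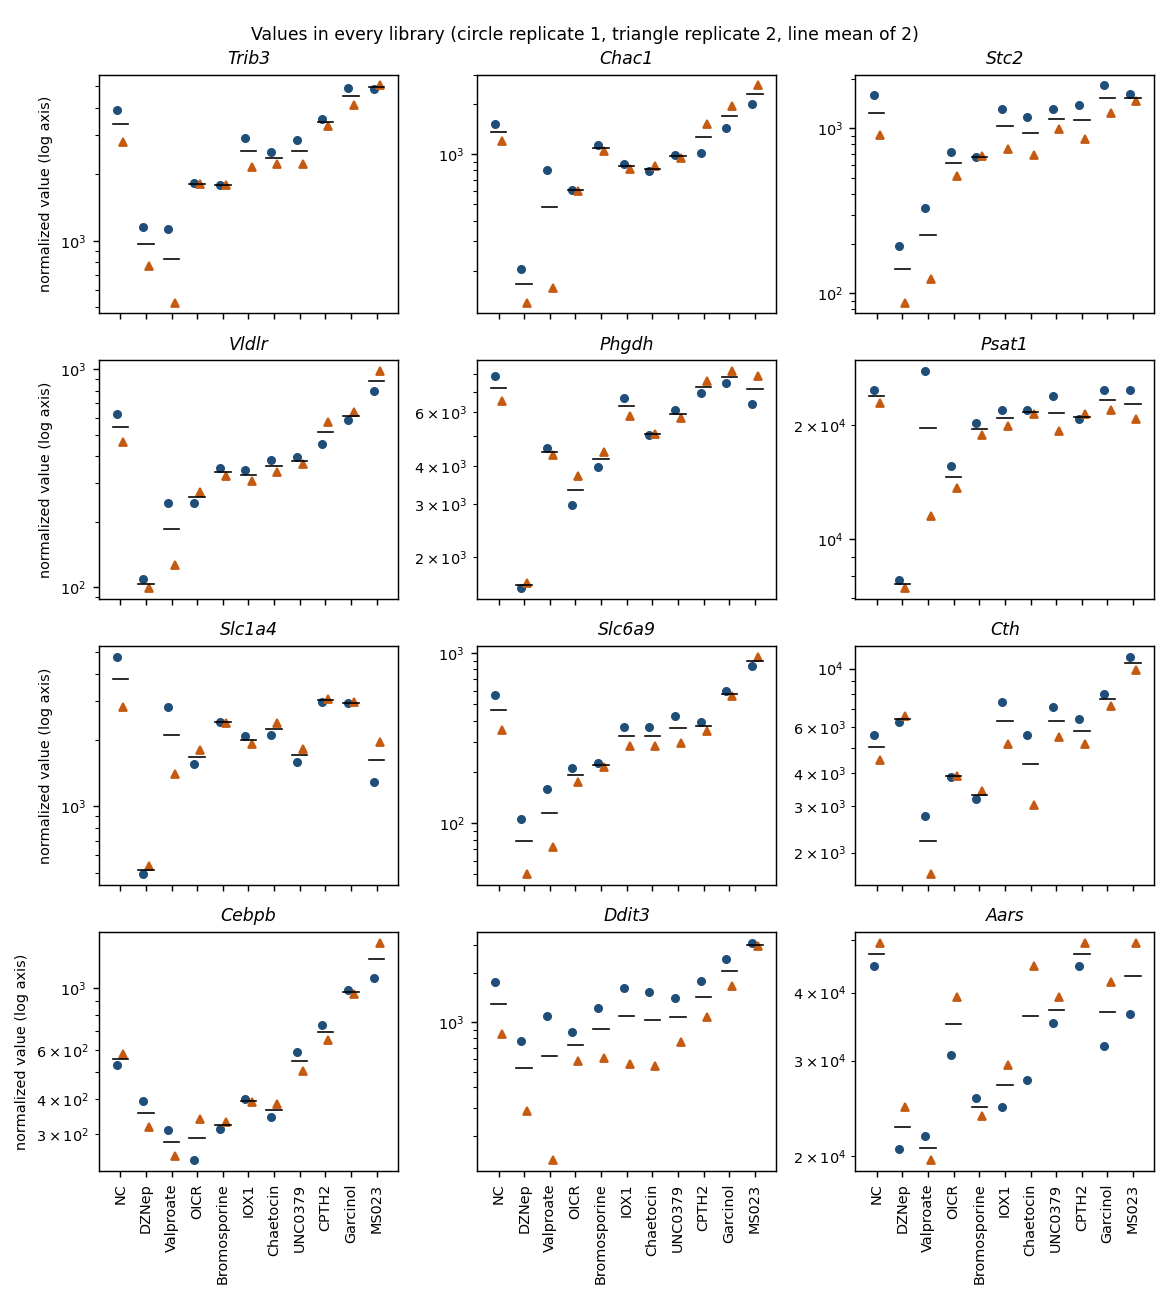
Normalized value (y axis, log scale, different range in each panel) of 12 members in every library, by group (x axis); circles are replicate 1, triangles replicate 2 and lines the mean of the 2. DZNep and Valproate libraries lie lowest for Trib3, Stc2 and Slc6a9, Phgdh, Psat1 and Slc1a4 are lowest with DZNep alone, and Cth is lowest with Valproate.

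Every enzyme of amino acid and one-carbon synthesis except Asns was called with at least 1 compound. The serine pathway begins with Phgdh, continues with Psat1 and ends with Psph. Phgdh (chromosome 3, 98313170 to 98339990, minus strand) measured 7894 and 6544 in NC, 1580 and 1650 with DZNep, 4567 and 4333 with Valproate, 2968 and 3713 with OICR, 3975 and 4454 with Bromosporine, 6692 and 5847 with IOX1, 5055 and 5094 with Chaetocin, 6097 and 5726 with UNC0379, 6912 and 7573 with CPTH2, 7472 and 8179 with Garcinol and 6377 and 7894 with MS023. Both DZNep libraries were the lowest of the 22, and both OICR libraries lay below both NC libraries. The change of Phgdh was -2.15 ± 0.14 with DZNep (4.45-fold lower, adjusted p = 2.45e-06) and -1.11 ± 0.14 with OICR (adjusted p = 0.0038), the latter not past 2-fold without NC replicate 1 (-0.98, adjusted p = 0.0411) or OICR replicate 1 (-0.95, adjusted p = 0.0228). Of the 31-base stretches of Phgdh, 74.1% occur in other genes, so its reads may be shared with copies.

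Psat1 (chromosome 19, 15904678 to 15947337, minus strand), the aminotransferase of the pathway, measured 24778 and 22956 in NC, 7821 and 7413 with DZNep, 27771 and 11541 with Valproate, 15640 and 13634 with OICR, 20309 and 18790 with Bromosporine, 21983 and 19854 with IOX1, 21983 and 21350 with Chaetocin, 23897 and 19257 with UNC0379, 20768 and 21350 with CPTH2, 24778 and 21983 with Garcinol and 24778 and 20768 with MS023. Both DZNep libraries were the lowest of the 22. The change was -1.65 ± 0.27 with DZNep (adjusted p = 0.000837), while the Valproate libraries stood far apart, 1 above and 1 below NC. Psph (chromosome 5, 129765558 to 129787449, minus strand), the phosphatase that releases serine, measured 2682 and 2364 in NC, 1004 and 1349 with DZNep, 1401 and 1085 with Valproate, 1569 and 1630 with OICR, 1958 and 2161 with Bromosporine, 3352 and 2572 with IOX1, 2384 and 2095 with Chaetocin, 2572 and 2349 with UNC0379, 2479 and 2701 with CPTH2, 2965 and 3006 with Garcinol and 3675 and 3394 with MS023. All 4 libraries of DZNep and Valproate lay below the other 18. Its change was -1.11 with DZNep (adjusted p = 0.000345) and -1.03 with Valproate (adjusted p = 0.00161), both near the 2-fold limit: without DZNep replicate 1 it was -0.90 (adjusted p = 0.0045), and with Valproate it was -0.94 (adjusted p = 0.0231) without NC replicate 1 and -0.85 (adjusted p = 0.0173) without Valproate replicate 2.

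Serine is turned to glycine in mitochondria by the enzyme of Shmt2, and Mthfd2 encodes the next enzyme of the folate cycle there. Shmt2 (chromosome 10, 127517123 to 127522444, minus strand) measured 13304 and 12341 in NC, 7218 and 6283 with DZNep, 6460 and 5568 with Valproate, 8293 and 8602 with OICR, 9262 and 10469 with Bromosporine, 9399 and 10157 with IOX1, 10004 and 10910 with Chaetocin, 12535 and 13304 with UNC0379, 10288 and 11808 with CPTH2, 11193 and 12341 with Garcinol and 12535 and 13581 with MS023. The 4 libraries of DZNep and Valproate were the lowest of the 22. The DZNep change of -0.93 (adjusted p = 0.000102) stayed within 2-fold and the Valproate change of -1.09 ± 0.11 was called (adjusted p = 0.000107), with -0.99 (adjusted p = 0.00117) without Valproate replicate 2. On the opposite strand Shmt2 overlaps Ndufa4l2. Mthfd2 (chromosome 6, 83305691 to 83325908, minus strand) measured 11454 and 7031 in NC, 3253 and 2457 with DZNep, 6552 and 2498 with Valproate, 4685 and 4190 with OICR, 6341 and 5094 with Bromosporine, 8080 and 5777 with IOX1, 8147 and 5441 with Chaetocin, 8343 and 5933 with UNC0379, 8502 and 7736 with CPTH2, 9846 and 9073 with Garcinol and 13538 and 13277 with MS023. The DZNep pair and the second Valproate library were the lowest, and the MS023 pair the highest. Mthfd2 fell by 1.67 ± 0.37 with DZNep (adjusted p = 0.00542), not called without NC replicate 1 (-1.31, adjusted p = 0.075).

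Proline synthesis runs from glutamate through Aldh18a1 to Pycr1. Aldh18a1 (chromosome 19, 40550257 to 40588463, minus strand) measured 6606 and 4471 in NC, 1685 and 1126 with DZNep, 4912 and 2647 with Valproate, 3459 and 3116 with OICR, 4599 and 3600 with Bromosporine, 4245 and 3351 with IOX1, 5094 and 4025 with Chaetocin, 5094 and 3739 with UNC0379, 5777 and 4970 with CPTH2, 5881 and 4657 with Garcinol and 5466 and 5556 with MS023. The DZNep libraries lay below all 20 others, with a change of -1.98 ± 0.29 (adjusted p = 0.000371). Pycr1 (chromosome 11, 120635712 to 120643769, minus strand) measured 2712 and 2170 in NC, 962 and 820 with DZNep, 2091 and 822 with Valproate, 1709 and 1517 with OICR, 2051 and 2091 with Bromosporine, 2706 and 1846 with IOX1, 2329 and 1728 with Chaetocin, 2313 and 1766 with UNC0379, 2633 and 2313 with CPTH2, 2736 and 2306 with Garcinol and 4066 and 3983 with MS023. The DZNep pair and the second Valproate library were again the lowest. The change with DZNep was -1.45 ± 0.33 (adjusted p = 0.00586), lost without NC replicate 1 (-1.29, adjusted p = 0.062).

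Cth (chromosome 3, 157894248 to 157925077, minus strand), the enzyme that makes cysteine from cystathionine, measured 5607 and 4502 in NC, 6290 and 6583 with DZNep, 2765 and 1656 with Valproate, 3887 and 3922 with OICR, 3209 and 3432 with Bromosporine, 7461 and 5193 with IOX1, 5607 and 3046 with Chaetocin, 7169 and 5483 with UNC0379, 6420 and 5193 with CPTH2, 8042 and 7226 with Garcinol and 11051 and 9891 with MS023. Both DZNep libraries lay above both NC libraries, at a change of 0.36 that was not called (adjusted p = 0.385), and both Valproate libraries were the lowest of the 22. The Valproate change was -1.23 ± 0.28 (adjusted p = 0.013), lost without NC replicate 1 (-1.07, adjusted p = 0.108) or Valproate replicate 2 (-0.86, adjusted p = 0.108). Asns (chromosome 6, 7675169 to 7693254, minus strand), which encodes asparagine synthetase and is a standard reporter of the response, measured 67756 and 54023 in NC, 36708 and 41963 with DZNep, 59584 and 67756 with Valproate, 59584 and 67756 with OICR, 67756 and 67756 with Bromosporine, 45095 and 41963 with IOX1, 49540 and 54023 with Chaetocin, 49540 and 54023 with UNC0379, 67756 and 67756 with CPTH2, 67756 and 59584 with Garcinol and 54023 and 54023 with MS023. The 22 libraries shared 7 distinct values, since the highest ranks of a library receive fixed values in this normalization. The first DZNep library was the lowest of the 22 and the second was level with the second of IOX1. The DZNep change was -0.62 ± 0.13 (adjusted p = 0.00347), under 2-fold.

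Of the 9 transporters, Slc7a11, Slc7a3, Slc6a9, Slc1a4 and Slc1a5 were called. Slc6a9 (chromosome 4, 117834506 to 117875198, plus strand), the glycine transporter GLYT1, measured 568 and 351 in NC, 106 and 50 with DZNep, 158 and 72 with Valproate, 210 and 174 with OICR, 225 and 215 with Bromosporine, 367 and 284 with IOX1, 366 and 284 with Chaetocin, 428 and 297 with UNC0379, 392 and 350 with CPTH2, 597 and 555 with Garcinol and 840 and 945 with MS023. The 4 libraries of DZNep and Valproate were the lowest of the 22 and the MS023 pair was the highest. The change was -2.60 ± 0.38 with DZNep (adjusted p = 0.000334) and -2.06 ± 0.38 with Valproate (adjusted p = 0.0042), the latter not called without NC replicate 1 (-1.71, adjusted p = 0.0542). For Slc6a9, 42.6% of such stretches occur elsewhere, and on the opposite strand it overlaps B4galt2, Ccdc24 and Gm17114.

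Slc1a4 (chromosome 11, 20302180 to 20332713, minus strand), the neutral amino acid transporter ASCT1, measured 4760 and 2824 in NC, 492 and 535 with DZNep, 2824 and 1409 with Valproate, 1565 and 1797 with OICR, 2427 and 2391 with Bromosporine, 2095 and 1915 with IOX1, 2102 and 2384 with Chaetocin, 1590 and 1827 with UNC0379, 2981 and 3072 with CPTH2, 2934 and 2982 with Garcinol and 1287 and 1958 with MS023. Both DZNep libraries were below all others. The pairs of MS023, Bromosporine, Chaetocin, IOX1, OICR and UNC0379 also lay under both NC libraries, and NC had the highest mean. The change was -2.83 ± 0.29 with DZNep (7.13-fold lower, adjusted p = 2.36e-05) and -1.21 ± 0.29 with MS023 (adjusted p = 0.0465). With the mean of the other 10 groups as reference the MS023 change was -0.34 (adjusted p = 0.413). The MS023 call was lost without NC replicate 1 (-0.83, adjusted p = 0.374), MS023 replicate 1 (-0.90, adjusted p = 0.353) or MS023 replicate 2 (-1.51, adjusted p = 0.0666). Slc1a5 (chromosome 7, 16781340 to 16798274, plus strand), the glutamine transporter ASCT2, measured 7290 and 5031 in NC, 2521 and 2601 with DZNep, 5232 and 3291 with Valproate, 4111 and 4333 with OICR, 5981 and 5170 with Bromosporine, 6143 and 5439 with IOX1, 5771 and 4489 with Chaetocin, 5004 and 3892 with UNC0379, 6858 and 5771 with CPTH2, 8179 and 6544 with Garcinol and 6858 and 7978 with MS023. Both DZNep libraries were the lowest of the 22. Slc1a5 fell by 1.24 ± 0.23 with DZNep (adjusted p = 0.00167) and by less than 2-fold without NC replicate 1 (-0.97, adjusted p = 0.03).

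Slc7a11 (chromosome 3, 49892526 to 50443614, minus strand), the cystine importer xCT, measured 106 and 159 in NC, 58 and 56 with DZNep, 72 and 62 with Valproate, 108 and 89 with OICR, 106 and 101 with Bromosporine, 137 and 109 with IOX1, 99 and 117 with Chaetocin, 171 and 161 with UNC0379, 111 and 150 with CPTH2, 170 and 204 with Garcinol and 200 and 188 with MS023. Both DZNep libraries were the lowest and both Valproate libraries the next, and the NC libraries differed from each other. The change was -1.17 ± 0.23 with DZNep (adjusted p = 0.00229), or -0.88 without NC replicate 2 (adjusted p = 0.0287). Slc7a3 (chromosome X, 101079210 to 101086020, minus strand), a transporter of cationic amino acids, measured 2800 and 3222 in NC, 3140 and 2018 with DZNep, 1006 and 1811 with Valproate, 3502 and 3644 with OICR, 2259 and 3393 with Bromosporine, 2800 and 2991 with IOX1, 2630 and 2574 with Chaetocin, 3297 and 3311 with UNC0379, 2850 and 2544 with CPTH2, 4025 and 4089 with Garcinol and 4448 and 3692 with MS023. Both Valproate libraries were the lowest of the 22. The Valproate change was -1.15 ± 0.25 (adjusted p = 0.0109), lost without NC replicate 2 (-1.05, adjusted p = 0.0807) or Valproate replicate 1 (-0.73, adjusted p = 0.119). Slc7a5 and Slc3a2, the light and heavy chain of the leucine exchanger LAT1, Slc7a1, a further cationic transporter, and Slc38a2, the glutamine carrier SNAT2, were called with no compound. Their DZNep changes were -0.90, -0.77, -0.69 and -0.31.

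The 10 cytosolic tRNA synthetases, which load amino acids onto their tRNAs, all had a negative change with DZNep, from -1.06 to -0.17, and 3 were called. Aars (chromosome 8, 111033144 to 111057664, plus strand), for alanine, measured 44793 and 49312 in NC, 20665 and 24664 with DZNep, 21827 and 19688 with Valproate, 30736 and 39193 with OICR, 25574 and 23680 with Bromosporine, 24664 and 29399 with IOX1, 27687 and 44793 with Chaetocin, 35221 and 39193 with UNC0379, 44793 and 49312 with CPTH2, 31970 and 41831 with Garcinol and 36561 and 49312 with MS023. The 4 libraries of DZNep and Valproate lay below both of NC. The second DZNep library was level with the first of IOX1, and the second of Bromosporine lay below both. The change was -1.06 ± 0.22 with DZNep (adjusted p = 0.00366) and -1.18 ± 0.22 with Valproate (adjusted p = 0.00451). The DZNep change was under 2-fold without DZNep replicate 1 (-0.93, adjusted p = 0.0317) or NC replicate 2 (-0.99, adjusted p = 0.0275). For Aars, 22.7% of 31-base stretches occur elsewhere, and on its own strand it overlaps Exosc6. Gars (chromosome 6, 55038007 to 55079500, plus strand), for glycine, measured 39193 and 35221 in NC, 18252 and 18252 with DZNep, 24664 and 17174 with Valproate, 18667 and 19138 with OICR, 22763 and 20665 with Bromosporine, 24664 and 20208 with IOX1, 28536 and 30736 with Chaetocin, 30736 and 26592 with UNC0379, 39193 and 44793 with CPTH2, 41831 and 31970 with Garcinol and 31970 and 44793 with MS023. The DZNep pair and the second Valproate library were the lowest, and OICR lay close above them. Gars fell by 1.02 with DZNep (adjusted p = 0.002) and was not past 2-fold without NC replicate 1 (-0.95, adjusted p = 0.0258). Iars (chromosome 13, 49682100 to 49734267, plus strand), for isoleucine, measured 13845 and 12583 in NC, 7992 and 5380 with DZNep, 12583 and 8556 with Valproate, 10704 and 9211 with OICR, 11865 and 10812 with Bromosporine, 13342 and 11541 with IOX1, 15395 and 12389 with Chaetocin, 14739 and 11690 with UNC0379, 14739 and 11388 with CPTH2, 14424 and 11541 with Garcinol and 14138 and 14424 with MS023. Both DZNep libraries were the lowest of the 22. Iars fell by 1.01 with DZNep (adjusted p = 0.00516), a value not called without NC replicate 1 (-0.94, adjusted p = 0.0493) or DZNep replicate 2 (-0.72, adjusted p = 0.0504). The other members, Cars, Nars, Sars, Wars, Mars, Eprs and Lars, were called with no compound, with Valproate changes from -0.64 to -0.21.

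Where DZNep and Valproate differed was tested directly, in a contrast chosen after the values had been seen. Phgdh (-1.46, adjusted p = 1.81e-05), Slc1a4 (-1.96, adjusted p = 0.000399), Aldh18a1 (-1.39, adjusted p = 0.00426) and Psat1 (-1.23, adjusted p = 0.00589) were lower with DZNep than with Valproate, on the log2 scale of DZNep minus Valproate, where 5.92% of all genes were. Cth was higher with DZNep (1.59, adjusted p = 0.00135), where 4.85% of all genes were. Without Valproate replicate 1 the differences of Psat1 (-0.60) and Aldh18a1 (-0.94) were under 2-fold, and without Valproate replicate 2 more members were called. The share of all genes called in these fits was not compared. For the 37 members not called, the difference was not shown to be absent.

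Members with a TGATGNAA match in their promoter made up 10 of the 18 that were called lower with DZNep and had a promoter sequence (55.6%), and 2 of the 16 that were not called (12.5%). With Valproate the shares were 5 of 10 (50%) and 7 of 24 (29.2%). No test was run on these shares, and the promoters of Phgdh and Psat1 held no match in this window.

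NC was also replaced as reference by the mean of the other 10 groups. On that scale 10 members were called higher with MS023 (background 1.33%): Atf3, Cebpb, Trib3, Chac1, Ppp1r15a, Vldlr, Mthfd2, Pycr1, Cth and Slc6a9. Slc6a9 led with 1.80 (adjusted p = 0.0016) and Chac1 stood at 1.57 (adjusted p = 0.0205). Against NC the MS023 changes were 0.995 for Slc6a9 and 0.75 for Chac1. The reference for MS023 takes in DZNep and Valproate, where Slc6a9 and Chac1 were called lower. Of these 10, Cebpb alone was called against NC. With the same reference DZNep had 14 members called lower (background 6.13%) and Valproate 9 (background 3.1%).

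The second libraries of the groups were lower than the first for 22 of the 42 members at an adjusted p under 0.05, where 22.8% of all genes were, and higher for 1, Aars (0.23), where 29.9% were. Eprs (-0.76), Cebpg (-0.63), Mthfd2 (-0.44) and Atf4 (-0.38) were among the 22. With replicate 2 set against replicate 1 across all groups, 2 members were called lower, where 1.95% of all genes were, and 0 higher, where 2.09% were: Ddit3 (-1.12, adjusted p = 0.000563) and Nupr1 (-1.01, adjusted p = 0.00029). The count was 0 without both Valproate libraries and 1 without both Chaetocin libraries. Compared within replicate numbers, the median Valproate change over the members was -0.58 for number 1 and -0.94 for number 2, with the larger fall in number 2 for 36 of 42. For DZNep the medians were -0.96 and -0.99, with the larger fall in number 2 for 23 of 42. All 19 DZNep calls and all 12 Valproate calls had the sign of the call within both numbers. The called change is the mean of the changes within the 2 numbers, from the same libraries, so this shared sign is not a separate test. What the replicate number stands for was not stated.

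**Figure D3:**
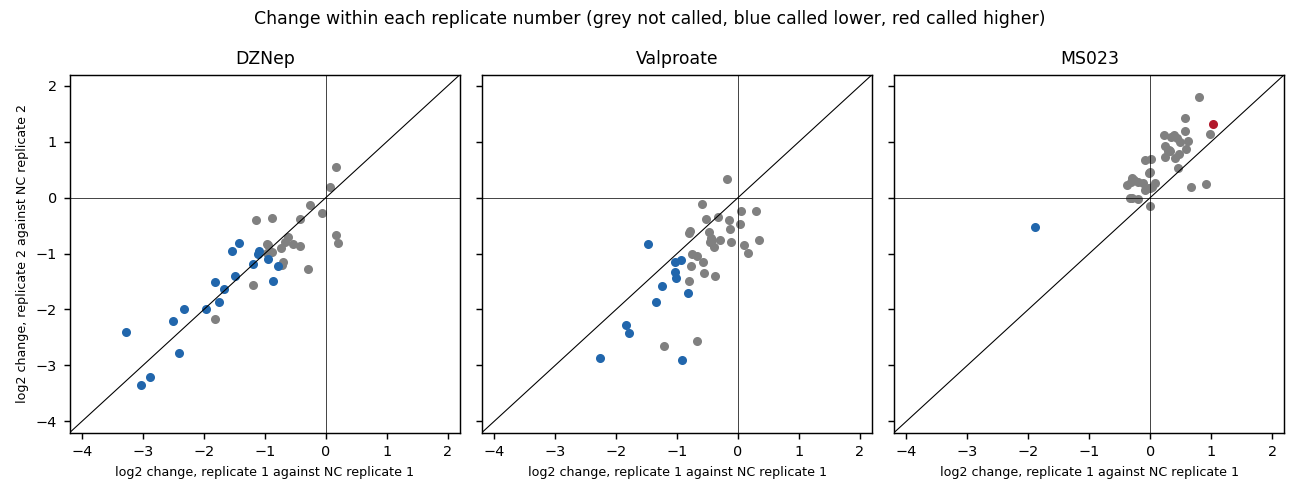
Log2 change of each member against NC computed from the replicate 1 libraries (x axis) and from the replicate 2 libraries (y axis), in panels for DZNep, Valproate and MS023. Points are members, coloured where called, and the diagonal marks equal change. The Valproate points lie mostly under the diagonal, with 36 of 42 members falling more in number 2, while DZNep points scatter on both sides.

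Further lists of the same pathways were examined beside the members. Like the members, these lists were chosen with earlier results of these data known, so differences between lists can follow from the choice and are not tests. The list for eIF2 kinases, eIF2 and eIF2B held 14 genes, among them Impact and Ppp1r15b, which belong to none of these classes. Its median change was 0.04 with DZNep. The 1 call with DZNep was Impact, an inhibitor of the kinase GCN2 (-1.13, adjusted p = 0.0469), so no gene of the named classes was called. The other compounds gave 0 calls. Over all compounds, 16 of 140 pairs of gene and compound had an unadjusted limma p under 0.05, a share not set against all genes. Of 18 further genes linked to ATF4, 8 were called lower with DZNep: Fam129a (-1.53), Pck2 (-1.92), Gpt2 (-1.75), Aldh1l2 (-2.19), Mthfd1l (-1.46), Cebpa (-1.53), Jdp2 (-1.88) and Herpud1 (-1.33). The lowest of them, Aldh1l2, encodes a mitochondrial folate enzyme (adjusted p = 2.46e-05), and the highest adjusted p of the 8 was that of Cebpa (0.0236). Valproate gave 7 lower: Fam129a (-1.70), Pck2 (-1.50), Gpt2 (-1.13), Aldh1l2 (-1.02), Jdp2 (-1.32), Herpud1 (-1.30) and Soat2 (-2.62), with adjusted p from 2.46e-05 for Soat2 to 0.0391 for Gpt2. With MS023, Aldh1l2 (1.03, adjusted p = 0.0312) and Soat2 (1.19, adjusted p = 0.0162) rose, and with Bromosporine Fam129a (-1.75, adjusted p = 0.00885) and Soat2 (-1.44, adjusted p = 0.00275) fell.

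Of 19 other amino acid and one-carbon enzymes, 2 were called higher with DZNep, Cbs, which makes cystathionine from homocysteine (1.09, adjusted p = 0.0432), and Tdh, the threonine dehydrogenase of mouse ES cells (1.07, adjusted p = 0.000565). Tdh was also higher with OICR (1.13, adjusted p = 0.00878), Gldc of the glycine cleavage system was higher with Valproate (1.95, adjusted p = 0.00224), and Prodh, the proline-degrading enzyme, was lower with MS023 (-1.73, adjusted p = 0.00918). Of 10 other cytosolic tRNA synthetases only Vars was called, with DZNep (-1.34, adjusted p = 6.23e-06). Of 17 mitochondrial tRNA synthetases 0 were called with any compound. Their unadjusted limma p was under 0.05 in 17 of 170 pairs of gene and compound, a share not set against all genes. The median DZNep change was -0.23 for the other cytosolic and 0.01 for the mitochondrial synthetases, compared with -0.93 for the 10 member synthetases.

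**Figure D4:**
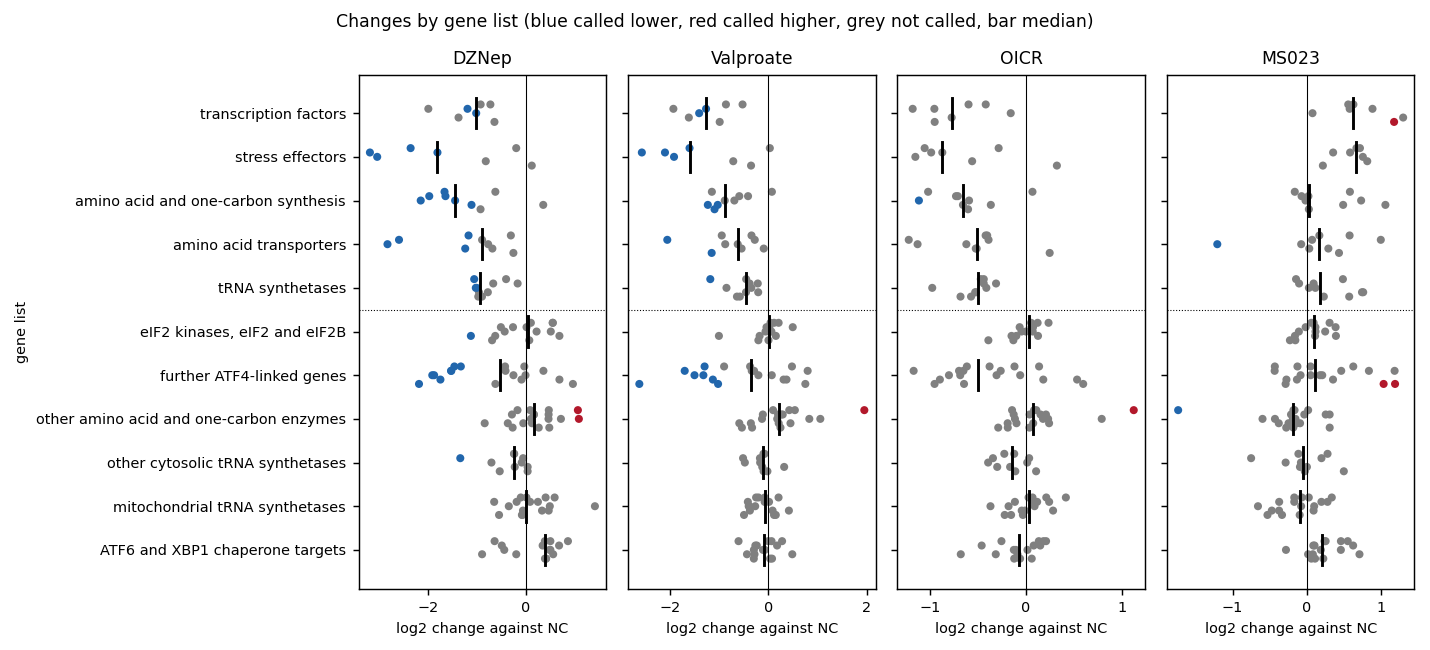
Log2 change against NC (x axis, different range in each panel) of each gene of the 5 member lists (above the dotted line) and 6 further lists (below it), in panels for DZNep, Valproate, OICR and MS023. Points are genes, coloured where called, and bars are list medians; with DZNep the member lists have medians from -1.81 to -0.90, and the eIF2 list 0.04.

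Other stress programmes were measured beside these. Of 16 chaperone targets of ATF6 and XBP1, the arms of the unfolded protein response that do not run through eIF2, 0 were called with any compound by limma. An unadjusted limma p under 0.05 was found in 24 of 160 pairs, a share not set against all genes. The median change of these chaperone targets was 0.40 with DZNep. Of 10 p53 targets, which include the member Sesn2, 4 were higher with DZNep (Mdm2 1.51, Ccng1 1.21, Phlda3 1.52 and Btg2 1.65). The list median was 1.04, with a range from 0.12 (Sesn2) to 1.65. Their summed value was 49826 and 47927 in NC and 106822 and 85166 with DZNep. Among 9 NRF2 targets, which include Slc7a11, Nqo1 rose with IOX1 (2.15, adjusted p = 0.0034) and MS023 (1.62, adjusted p = 0.00616), Srxn1 rose with MS023 (1.38, adjusted p = 0.042) and fell with Valproate (-1.31, adjusted p = 0.0186). The fibroblast markers Col1a1 (3.46, adjusted p = 1.79e-05) and Thy1 (2.40, adjusted p = 0.00115) were higher with DZNep, and Thy1 (4.72, adjusted p = 3.01e-05) was higher with Valproate. Lum was at 0 in both NC libraries, at 197 and 331 with Valproate and at 346 in the first CPTH2 library. Col1a1 was 14 and 25 with Valproate against 24 and 24 in NC, and Pdgfrb was 57 and 64 with DZNep and 59 and 54 with Valproate against 217 and 108 in NC, with no call. With Bromosporine Col1a1 (-1.74, adjusted p = 0.00931) was lower. Summed over the 7 feeder markers in the table (of 8 listed), values were 271 and 917 in NC, 992 and 1119 with DZNep and 955 and 1476 with Valproate. These sums rest in large part on Col3a1, at 4 and 743 in NC, 509 and 716 with DZNep and 307 and 722 with Valproate. Col3a1 also lay far apart within other groups, at 2 and 539 with Garcinol and 3 and 622 with IOX1, though not with Bromosporine (658 and 601). Of the 10 ES cell markers, Zfp42 (1.15, adjusted p = 0.000883) and Utf1 (1.91, adjusted p = 7.54e-05) were called higher with DZNep, 3 had negative changes that were not called, and the list median was 0.17. Utf1 was also higher with Bromosporine (1.55, adjusted p = 0.00174), OICR (1.39, adjusted p = 0.0142) and Valproate (1.32, adjusted p = 0.0026). Among markers of endoderm, mesoderm and neural cells, Dab2 (1.54, adjusted p = 0.0238) and Eomes (1.10, adjusted p = 0.027) were higher and Gata4 (-1.72, adjusted p = 0.000749), Sox1 (-1.52, adjusted p = 2.34e-05) and Nes (-1.34, adjusted p = 0.000171) lower with DZNep. With Valproate Map2 (2.08, adjusted p = 0.000116) was higher and Sox1 (-1.21, adjusted p = 0.000366) lower, with MS023 Sox1 (-1.37, adjusted p = 0.00128) was lower, and with Bromosporine Eomes (1.33, adjusted p = 0.0323) was higher and Hand1 (-2.82, adjusted p = 0.0411) lower. The part of these lists in the changes of the members was not tested. In these bulk libraries a smaller number of cells of a type and less RNA per cell cannot be told apart.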

How the data were processed

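RNA from 22 libraries of E14 cells was analysed, 2 for each of 11 groups, which were taken with their replicate numbers from the sample titles. The deposited values are scores: read counts that the authors normalized with EDASeq at its full-quantile setting and rounded. The submitters' processing notes name bcl2fastq, Bowtie2 2.2.5, RSEM and mm10. Whether RSEM or TEtranscripts gave this table, and whether strand was used, was not stated. Library totals after normalization ran from 38403767 to 38419709, so depth is hidden, a change shared by most genes would be removed, and no interval that needs depth was given. A further deposited table held the authors' group means. It differed from means of the libraries by at most 0 and served only for that check. All columns matched a sample, with 0 unmatched.

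The members and gene lists were chosen with earlier results of these data known, and the DZNep to Valproate contrast after values were seen. Genes with at least 10 in at least 2 libraries were kept (17275 of 18487). Values were taken as log2(value + 1) and fitted in R 4.3.3 with limma 3.58.1 (lmFit, eBayes with trend) as 11 group means, with 11 residual degrees of freedom. Two-sided p-values took a Benjamini-Hochberg adjustment over all tested genes, separately for each contrast, and calls needed an adjusted p under 0.05 and a change over 2-fold. Changes on this scale understate those of low genes. DESeq2, the study's tool, models raw counts and was not run on values already brought to one distribution. Values in every library are given for each called member and for Atf4, Atf3, Ddit3, Trib3, Chac1, Asns, Psat1, Phgdh, Slc7a11 and Aars. Genes of other lists are named with values where called.

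The scripts were tested on simulated data. A further promoter match is not reported here. No 2 libraries held identical values. Positions came from GENCODE M21 (mm10), and the share of 31-base stretches is that of the longest transcript found in other genes' transcripts. Alternatives were a pseudocount of 10, no filter, the replicate number as a block, median-ratio rescaling, other references, adjustment over all 10 contrasts, fits of 4 libraries, and leaving out libraries. Plots used Python 3.11.15 and matplotlib 3.10.9.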

Additional observations from a re-analysis of the deposited data

How the results depend on the processing

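None of the 34 calls of a member with a compound changed direction under the 11 alternatives tried for each. Direction could not change under several of these. The replicate block, the fit with no filter, the adjustment over all 10 contrasts and the fit of 4 libraries keep the same fitted change. The others reuse most of the same libraries, so the lack of reversals is not a separate test. Phgdh and Psat1 with DZNep, 2 of the 34, stayed called under all 11. Fitting a compound's libraries with NC alone gave 2 members called with DZNep (19 in the fit of all libraries), and 0 each with Valproate (12), MS023 (2) and OICR (1). That fit has 4 libraries. With the mean of the other 10 groups as reference, MS023 gave 10, Garcinol 1 (0 against NC) and OICR 0. MS023 gave 1 call with no filter on low values and 1 after median-ratio rescaling, and Bromosporine 1 (0 otherwise) after that rescaling. Adjustment over all 10 contrasts gave 2 with OICR. Samples with the same replicate number deviated together in part: over 55 pairs of groups the correlation of deviations ran from 0.0535 to 0.298 (median 0.196). All were positive, and 51 were over 0.1. Since not every pair was over 0.1, the numbers were not taken to pair the samples. The main fit therefore leaves the shift between replicate numbers in the spread within groups. With the replicate block, OICR gave 5 (Vldlr, Phgdh, Mthfd2, Slc6a9 and Slc1a4, all lower, background 1.2%), Bromosporine 1 (Slc6a9, lower, background 5.49%), DZNep 21 (all lower, background 8.09%), Valproate 15 (all lower, 4.13%) and MS023 3 (2 higher, 1.16%, and 1 lower, 1.64%), and 40 members passed the F test (65.9% of all genes). The calls gained with the block for these 3 were Ddit3 and Nupr1 with both DZNep and Valproate, Mthfd2 with Valproate and Cth with MS023. Ddit3, Cebpg and Nupr1 passed the moderated F test with the block (adjusted p = 0.00476, 0.000246 and 0.000269) and not without it (0.232, 0.266 and 0.0529). The cause of these shifts was not tested. Leaving out 1 library at a time gave 13 to 22 calls with DZNep, 7 to 21 with Valproate, 0 to 2 with MS023, 0 to 1 with OICR and 0 to 1 with Bromosporine, and 26 to 34 members passing the F test. Between DZNep and Valproate it gave 3 to 11 (5 with all libraries), alternatives chosen after seeing the data, and between replicate numbers 0 to 2. In those fits the lone library of a group is assumed to vary like the others. Where a count here has no background beside it, the share of all genes was not compared. How far such counts are particular to the members is not known. The depth of each library is unknown, so what depth limits could not be stated.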
